A study of Mus musculus with 6 samples.

Results

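Transcription factor genes that mark or specify the layers of the cerebral cortex were followed through 6 single-nucleus RNA-Seq libraries of the prelimbic area (PL), a part of the medial prefrontal cortex of the mouse. The genes are Cux1, Cux2, Rorb, Fezf2, Bcl11b, Etv1, Tbr1, Foxp2 and Foxp1, 9 of the 32285 genes counted, and they were chosen by name. All animals were male C57BL/6 mice, and each library was made from the pooled tissue of 3 males born to different mothers, so a library is the unit of comparison and the spread between animals within a pool was not measured. Run males were raised from postnatal day 2 to 21 by dams that had a running wheel in the cage, and Sed males by dams in standard cages. From weaning on day 21 they lived without a wheel, either group-housed (GH) or alone in social isolation (SI), until about 4 months of age. The labels give P21, the day of weaning, for every sample. Cohort 1 holds 1 Run GH and 1 Sed GH library from males taken after tube tests of dominance. These males ranked top or bottom in their own groups, and the study does not state whether top meant Run and bottom Sed. Cohort 2 holds 4 libraries, 1 for each pairing of maternal group and housing, from males without such tests.

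In the developing cortex these factors divide newborn projection neurons into classes. Cux1 and Cux2, homeodomain proteins, are kept in upper-layer neurons that project within the cortex, and Rorb, a nuclear receptor, marks neurons of layer 4 and the upper part of layer 5. Fezf2, a zinc finger protein, and its target Bcl11b (Ctip2) specify the extratelencephalic (ET) neurons of layer 5, which project to the brainstem and spinal cord, while Tbr1, a T-box protein, is needed for corticothalamic (CT) neurons of layer 6. Etv1 (Er81), an ETS factor, is found in layer 5, and the forkhead proteins Foxp1 and Foxp2 are found in layers 3 to 6 and in layer 6, respectively. Prelimbic cortex has no clear layer 4, and in the adult some of these genes are also known in cells other than projection neurons.

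The libraries gave 42595 nuclei, with a median of 1637 to 6250 unique molecular identifiers (UMIs, each marking 1 captured RNA molecule) per nucleus. Cohort 1 was deeper, at 5586 and 6250 UMIs, than cohort 2, at 1637 to 4033, and the Sed GH library of cohort 2 was the shallowest of the 6. The UMI minimum set for each library was also higher in cohort 1. It was 2452 and 3156 there and 621 to 1587 in cohort 2. The part of this cut in the depth difference was not tested. Pairs of libraries shared 5 to 22 barcodes. Nuclei were clustered without the 9 genes, and clusters were named from other markers, so "-like" below means a match to those markers. Of the nuclei, 33481 fell into 8 pyramidal groups, namely layer 2/3-like, mid-layer-like, layer 5 IT-like (intratelencephalic), layer 5 ET-like, layer 5 NP-like (near-projecting), layer 6 CT-like, layer 6 IT-like, and a group of 2718 nuclei led by Ankfn1 and Pld5 that the markers did not name and that is called by those 2 genes. This last group was separate in 4 of 8 clusterings, and the layer 5 IT-like name, whose leading gene Il1rapl2 was a marker listed for the mid-layer, came from the markers in 3 of 8. Levels are given as CPM, the UMIs of a gene in all nuclei of a group and library scaled by all UMIs of that group and library. Where 6 values are given in a row, they are Run GH then Sed GH of cohort 1, and, of cohort 2, Run GH then Sed GH and Run SI then Sed SI.

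The promoters of 3 members are shown for genes whose levels are described most fully below, Cux2 and Rorb as the genes of the upper groups and Bcl11b as the gene of the ET-like group. Each is the 250 bases before the RefSeq start (GRCm38.p6), on the strand of the gene, and capitals mark the GC box GGGCGG or its reverse complement CCGCCC, the letters bound by Sp1 family factors. The box was found in 32.9% of 27025 promoters of that length.
Cux2, chr5:122049852-122050101, minus strand: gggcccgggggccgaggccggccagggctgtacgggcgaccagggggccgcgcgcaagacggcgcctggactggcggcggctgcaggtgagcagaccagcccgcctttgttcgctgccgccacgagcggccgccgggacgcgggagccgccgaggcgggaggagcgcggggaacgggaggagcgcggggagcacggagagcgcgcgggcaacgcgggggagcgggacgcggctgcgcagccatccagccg
Rorb, chr19:19111197-19111446, minus strand: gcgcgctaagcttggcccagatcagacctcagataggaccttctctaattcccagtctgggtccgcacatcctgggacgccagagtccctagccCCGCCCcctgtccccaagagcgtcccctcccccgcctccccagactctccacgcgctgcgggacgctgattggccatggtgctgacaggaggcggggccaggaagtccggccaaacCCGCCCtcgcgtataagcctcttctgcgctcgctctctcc
Bcl11b, chr12:108003415-108003664, minus strand: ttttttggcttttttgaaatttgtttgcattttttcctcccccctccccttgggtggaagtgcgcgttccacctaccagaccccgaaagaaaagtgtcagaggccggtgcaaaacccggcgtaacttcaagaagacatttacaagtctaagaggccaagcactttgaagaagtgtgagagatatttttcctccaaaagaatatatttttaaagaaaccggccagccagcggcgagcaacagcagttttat
The RefSeq start was the GENCODE start for Rorb, 188 bases from it for Bcl11b and 251 bases from it for Cux2, whose window lies inside the gene span given below. RefSeq holds 2 entries each for Cux2 and Rorb, and the one nearest the GENCODE start is shown. The Rorb window held the box at 2 places and the other 2 windows at none. Their GC content was 80.0% for Cux2, 66.0% for Rorb and 44.8% for Bcl11b, against a median of 52.0% over all promoters. Among the other members, Fezf2, Tbr1 and Foxp1 held 1 box each, and Cux1 and Etv1 none. In mm10, with GENCODE M21 genes, the upper-layer members were Cux1 (ENSMUSG00000029705) at chr5:136248135-136567490 and Cux2 (ENSMUSG00000042589) at chr5:121856366-122050102, both on the minus strand, and Rorb (ENSMUSG00000036192) at chr19:18930605-19111196, also minus. The members of the subcerebral program were Fezf2 (ENSMUSG00000021743) at chr14:12342094-12348189 and Bcl11b (ENSMUSG00000048251) at chr12:107910403-108003602, both minus, and Etv1 (ENSMUSG00000004151) at chr12:38779380-38870484 lay on the plus strand. The others were Tbr1 (ENSMUSG00000035033) at chr2:61802930-61814114 and Foxp2 (ENSMUSG00000029563) at chr6:14901349-15441977, both plus, and Foxp1 (ENSMUSG00000030067) at chr6:98925338-99522721, minus. The 9 genes span from 6.096 kb for Fezf2 on chromosome 14 to 597.4 kb for Foxp1 on chromosome 6, and since unspliced RNA was counted, levels of different genes are not set against each other here. Cux1 lies over 1 antisense gene and Cux2 over 2, and no other member overlaps a gene on the opposite strand.

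Across the pyramidal groups, most members differed far more than a typical gene did. The range of a gene was taken as the log2 ratio of its highest to its lowest group, on medians over the 6 libraries. For this ratio 1 CPM was added to each median. Folds below are plain ratios of the same medians, while shares of wider genes use the log2 range. It had a median of 4.56 over the 9 members, 1.76 over 27 other projection neuron factors with enough counts, and 0.69 over all 10011 genes compared. Foxp2 had the widest range of the members, 81.3-fold, and 0.19% of genes had a wider one. Cux2 (44.8-fold), Etv1 (35.7-fold), Bcl11b (29.9-fold), Rorb (25.1-fold) and Fezf2 (21.3-fold) followed, with 0.37% to 2.23% of genes wider. Cux1 (5.86-fold), Tbr1 (3.29-fold) and Foxp1 (2.56-fold) formed the flat end, with 9.9%, 17.7% and 21.6% of genes wider. Among the other factors, Tshz2 (8.88 on the log2 scale, highest at 5043 CPM in layer 5 NP-like nuclei, which it also served to name), Zfpm2 (5.30, at 1302 CPM in layer 6 CT-like nuclei) and Tle4 (4.95, at 502 CPM in layer 5 NP-like nuclei) had ranges above the median of the members. Tle4 also served to name the layer 6 CT-like group, and Pou3f1, another of these factors, the layer 5 ET-like group. All levels here are a description, since the genes are known as layer markers, and no test was made on them.

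**Figure D1:**
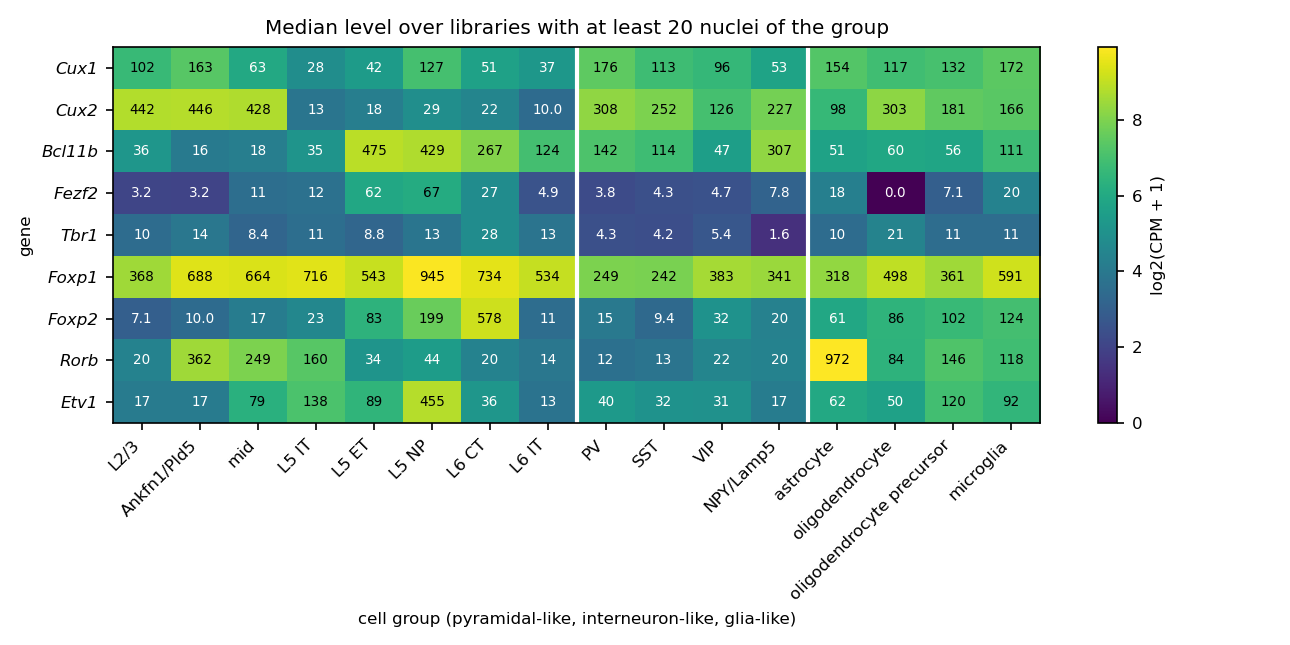
Median level of each gene in each cell group, as CPM over the libraries with at least 20 nuclei of that group; color is log2(CPM + 1). White lines part pyramidal-like, interneuron-like and glia-like groups. Cux2 is high in the 3 upper groups (428 to 446 CPM), Foxp2 in layer 6 CT-like nuclei (578 CPM) and Rorb in astrocyte-like nuclei (972 CPM).

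Among the pyramidal groups, Cux2 separated the upper groups from the rest. In layer 2/3-like nuclei its level was 821, 1202, 382, 447, 390 and 437 CPM over the 6 libraries. The Ankfn1/Pld5 group (683, 1063, 345, 470, 383 and 422 CPM) and the mid-layer-like group (532, 844, 310, 452, 385 and 404 CPM) lay in the same range. These 3 groups were not separated from each other, whereas the lowest of their 18 values, 310 CPM, was well above the highest value in any other pyramidal group, 51.9 CPM in layer 5 NP-like nuclei. Both cohort 1 libraries were higher than every cohort 2 library in each of the 3 groups. Within the upper groups 71.1% of layer 2/3-like nuclei had a Cux2 UMI in the median library, and 35.1% did once every nucleus was thinned to 1000 UMIs. In layer 6 IT-like nuclei, where the gene was lowest, the thinned share was 0.67%.

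Cux1, the closest relative of Cux2, was less selective. Among the pyramidal groups it was highest in the Ankfn1/Pld5 group in all 6 libraries (301, 251, 147, 163, 149 and 164 CPM). The layer 5 NP-like group came next by its median, with 134, 129, 137, 124, 106 and 115 CPM, and layer 2/3-like nuclei held 200, 168, 93.6, 104, 87.1 and 99.6 CPM. Layer 5 NP-like nuclei were above layer 2/3-like nuclei in 4 of 6 libraries, those of cohort 2, and below them in cohort 1. Layer 5 IT-like nuclei were lowest by the median, at 21.7 to 47.7 CPM. In Run GH of cohort 2 layer 6 IT-like nuclei were lowest, at 27.7 CPM. Cux1 in the layer 5 NP-like group thus lay within the range of the layer 2/3-like group. Cux2 in the same nuclei was 24.2 to 51.9 CPM. The Ankfn1/Pld5 group was not separate with members kept in clustering, at least 1000 genes or no upper limit on genes. Cux1 then peaked in layer 5 NP-like nuclei, and Rorb, described next, in mid-layer-like nuclei.

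Rorb had its highest pyramidal level in the Ankfn1/Pld5 group, with 342, 254, 440, 382, 453 and 275 CPM. The mid-layer-like group (242, 194, 373, 257, 330 and 213 CPM) and the layer 5 IT-like group (147, 118, 262, 173, 207 and 116 CPM) followed in that order in every library, although the ranges over libraries overlapped. Layer 2/3-like nuclei, which shared high Cux2 with the first 2 of these groups, held 6.94 to 24.6 CPM of Rorb. High Cux2 with low Rorb, both high, and high Rorb with low Cux2 (8.04 to 34.8 CPM in layer 5 IT-like nuclei) were therefore found in 3 different sets of nuclei. 

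Fezf2 and Bcl11b overlapped in the deep groups but did not follow the same order. Bcl11b was highest in layer 5 ET-like nuclei in all 6 libraries, with 635, 837, 429, 477, 416 and 474 CPM. It was next highest in layer 5 NP-like nuclei (462, 614, 309, 404, 351 and 454 CPM) and in layer 6 CT-like nuclei (339, 430, 208, 228, 245 and 289 CPM), in that order in every library. Layer 6 IT-like nuclei held 94.1 to 258 CPM, and no library of the upper groups or the layer 5 IT-like group exceeded 60.6 CPM. For Fezf2 3474 UMIs were counted in all nuclei. It was highest in layer 5 NP-like nuclei (49.0, 103, 80.1, 31.8, 78.6 and 55.8 CPM) in 4 libraries and in layer 5 ET-like nuclei (45.9, 62.0, 67.1, 46.3, 61.2 and 69.8 CPM) in the other 2, so these groups did not differ beyond their spread. Layer 6 CT-like nuclei held 22.7 to 37.9 CPM, below every ET-like library, and the layer 2/3-like and Ankfn1/Pld5 groups at most 6.68 CPM.

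Etv1 peaked in layer 5 NP-like nuclei in all 6 libraries, at 385, 214, 524, 461, 448 and 500 CPM. The layer 5 IT-like group (99.3, 68.6, 153, 139, 155 and 137 CPM) and the layer 5 ET-like group (82.8, 44.8, 123, 95.3, 94.9 and 73.7 CPM) were lower. Every NP-like library was above every library of the other 2 layer 5 groups. Mid-layer-like nuclei reached 56.4 to 104 CPM, and the layer 2/3-like, Ankfn1/Pld5 and layer 6 IT-like groups stayed at 9.38 to 23.6 CPM.

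Foxp2 was highest in layer 6 CT-like nuclei in all 6 libraries. These nuclei held 578, 546, 578, 554, 597 and 644 CPM, a narrow spread over libraries that otherwise differed in depth. Layer 5 NP-like nuclei held 148 to 230 CPM and layer 5 ET-like nuclei 56.9 to 98.0 CPM, and these 3 ranges did not overlap. In the other 5 pyramidal groups the highest value was 41.3 CPM. Tbr1 also peaked in layer 6 CT-like nuclei in all 6 libraries, but at 28.2, 32.7, 26.1, 26.9, 22.7 and 33.2 CPM, and the remaining 7 groups held 4.05 to 22.5 CPM. Only 2607 Tbr1 UMIs were counted in all nuclei, and after thinning 2.87% of CT-like nuclei had one in the median library. Foxp1 was read in every pyramidal group. Its level was 1001, 860, 963, 926, 862 and 986 CPM in layer 5 NP-like nuclei, the highest group in 5 of 6 libraries, and 333 to 550 CPM in layer 2/3-like nuclei, the lowest group.

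**Figure D2:**
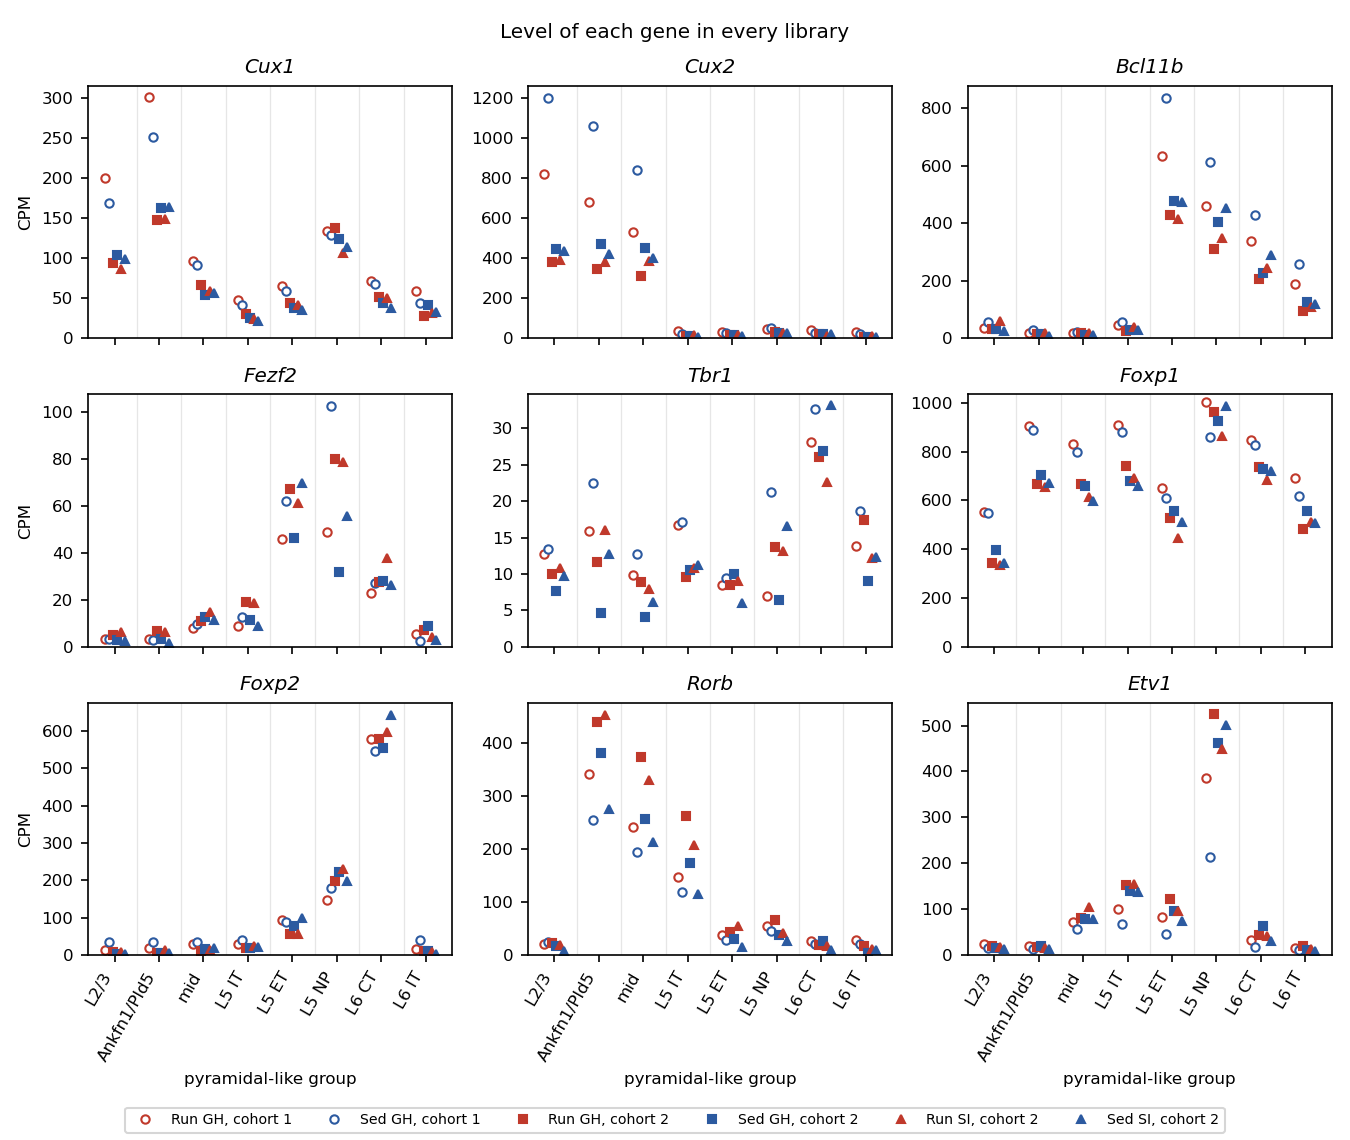
Level of each gene (CPM, linear axis from 0) in the 8 pyramidal-like groups, 1 point per library. Red is Run and blue is Sed; open circles are cohort 1, filled squares cohort 2 GH and filled triangles cohort 2 SI. Foxp2 stays at 546 to 644 CPM in layer 6 CT-like nuclei, and Cux2 in the upper groups is higher in both open circles than in all filled points.

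Outside the pyramidal groups, Rorb reached its highest level of all, in astrocyte-like nuclei, at 1083, 999, 944, 761, 890 and 1080 CPM. These values exceeded every pyramidal library, and the astrocyte-like nuclei held 6152 to 8679 CPM of the 6 astrocyte markers together against 350 to 420 in the pyramidal sum. Cux2 was found at 235 to 645 CPM in PV-like and at 196 to 529 CPM in SST-like interneurons, overlapping the upper pyramidal groups. Interneurons of the NPY/Lamp5-like group held 256 to 577 CPM of Bcl11b, within the range of the deep pyramidal groups. Fezf2 (0 to 14.6 CPM) and Tbr1 (0 to 19.5 CPM) were low in the 4 interneuron groups, and these values rested on few UMIs, 8 to 22 of Fezf2 and 5 to 24 of Tbr1 in a group over all libraries. Oligodendrocyte-like nuclei showed 144 to 582 CPM of Cux2, with 43 to 123 nuclei per library, where the free RNA of the droplets, described below, held 59.6 to 280 CPM. Cux1 had its highest median of all groups in PV-like nuclei, at 165 to 238 CPM, and it was 125 to 202 CPM in microglia-like and 106 to 202 CPM in astrocyte-like nuclei. Etv1 was 73.0 to 216 CPM in oligodendrocyte precursor-like nuclei, above its level in every interneuron group by the median. Free RNA held 50.5 to 123 CPM of Etv1, and 18.3% of those nuclei had doublet scores in the top 6% of their library. The part of either in this level was not tested. Foxp1 was 486 to 657 CPM in microglia-like nuclei, with 220 to 656 CPM in the free RNA. VIP-like nuclei were low in Bcl11b (19.1 to 90.1 CPM) beside the NPY/Lamp5-like group, and these ranges did not overlap. Foxp2 in the 4 interneuron groups was 0 to 72.7 CPM, below its lowest layer 5 NP-like library. Pyramidal markers in the astrocyte-like nuclei summed to 912 to 1394 CPM, and 17.7% of those nuclei had doublet scores in the top 6% of their library. Their part in the astrocyte-like levels was not tested.

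Since deeper libraries show a gene in more nuclei, shares of nuclei with a UMI were compared after thinning to 1000 UMIs. In the median library Foxp1 was then seen in 60.4% of layer 5 NP-like nuclei, Foxp2 in 41.7% of layer 6 CT-like nuclei, Bcl11b in 35.9% of layer 5 ET-like nuclei and Etv1 in 35.6% of layer 5 NP-like nuclei. The shares were 26.5% for Rorb in the Ankfn1/Pld5 group and 59.2% in astrocyte-like nuclei, and 5.96% for Fezf2 in layer 5 ET-like nuclei. As a background, Foxp2 was seen in 0.80% of thinned layer 2/3-like nuclei and Bcl11b in 1.73% of the thinned Ankfn1/Pld5 group. Before thinning, the Foxp2 shares were 83.5% in layer 6 CT-like and 2.48% in layer 2/3-like nuclei.

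RNA free in the droplets was read from barcodes with fewer than 100 UMIs. Its amount was taken from background droplets, a range of barcodes under the UMI minimum. Their median was 1065 and 1176 UMIs in cohort 1 and 82 to 302 in cohort 2. Before the UMI minimum, 82376 and 103391 barcodes of cohort 1 met the gene and mitochondrial limits, against 5687 to 10532 in cohort 2. The part of free RNA in the greater depth of cohort 1 was not tested. The free RNA held 24.7 to 69.2 CPM of Fezf2 and 21.8 to 54.8 CPM of Tbr1. All nuclei together held less, 11.2 to 23.9 and 9.36 to 17.5 CPM. Etv1 was also higher in the free RNA in both cohort 1 libraries and both Sed libraries of cohort 2. Sed GH of cohort 2 held 123 CPM of Etv1 in the free RNA against 73.7 CPM in nuclei. In both Run libraries of cohort 2 Etv1 was lower in the free RNA. For Foxp2 the free RNA held 153 CPM in Sed GH of cohort 1 and 40.4 to 74.5 CPM in the other 5 libraries, and the same library had the highest Foxp2 of the 6 in each of the 5 pyramidal groups that were low in the gene, at 34.7 to 41.3 CPM, and in PV-like nuclei (38.1 CPM). After subtraction of the expected free RNA, all 9 members kept their highest pyramidal group. The median of Tbr1 in layer 6 CT-like nuclei was then 26.9 CPM, against 27.5 before, and that of Fezf2 in layer 5 NP-like nuclei 67.9 CPM, against 67.2.

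Whether members were seen in the same nuclei was compared within groups, as a description. In layer 5 ET-like nuclei thinned to 1000 UMIs, Bcl11b was seen in 41.0% of the 222 nuclei with a Fezf2 UMI and in 39.5% of the others, higher with Fezf2 in 5 of 6 libraries, and in layer 5 NP-like nuclei in 28.1% of 114 against 32.4%, higher in 3 of 6. Among layer 6 CT-like nuclei, Foxp2 was seen in 41.2% of those with a Bcl11b UMI and 42.6% of those without. The share was higher with Bcl11b in 3 of 6 libraries. It was 37.5% in 152 nuclei with a Tbr1 UMI against 42.4% in the others, and higher with Tbr1 in 2 of 6. For Rorb in layer 5 IT-like nuclei, the share was 19.7% in the 519 nuclei with an Etv1 UMI and 14.3% in the others, higher in 4 of 6 libraries. In mid-layer-like nuclei, Cux2 was seen in 33.3% of nuclei with Rorb and 34.2% of those without. These shares pool the libraries, and Cux2 was higher with Rorb in 4 of 6 of them.

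Among 12177 other genes, those most like a member were found by Pearson r of log2(CPM + 1) over 96 values, 16 cell groups in 6 libraries, which share libraries and depth and carry no test. Foxp1 went most closely with Ptprd (r = 0.91), Foxp2 with Hs3st4 (0.82) and Zfpm2 (0.71), Bcl11b with Fmn1 (0.78), Cux1 with Pkd2 (0.78) and Rorb with Adk (0.78). The leading gene was less close for Cux2 with Spats2l (0.70), Tbr1 with Ypel1 (0.69), Fezf2 with Atp10a (0.67) and Etv1 with Tshz2 (0.66). Hs3st4 was a marker used to name the layer 6 CT-like group and Tshz2 one used for the layer 5 NP-like group. Over the 48 pyramidal values, the members paired most closely with each other were Etv1 and Fezf2 (r = 0.75), Foxp2 and Fezf2 (0.75), Cux1 and Cux2 (0.75) and Bcl11b and Fezf2 (0.73). The lowest were Bcl11b with Cux2 (-0.66) and with Rorb (-0.64).

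The first comparison asked whether the running wheel of the dams left a difference in these genes. Rorb was higher and Cux2 lower in Run than in Sed pyramidal nuclei in all 3 pairs of libraries, but no member passed the test. How many of all genes kept the same direction in all 3 pairs was not counted. Rorb in the pyramidal sum was 116, 76.2, 139, 107, 124 and 79.6 CPM, and each Run library was higher than the Sed library of its cohort and housing. Over all libraries, its Run values of 116 to 139 CPM lay above its Sed values of 76.2 to 107 CPM. The fitted log2 fold change was 0.50 (SE 0.10, adjusted p = 0.66 by edgeR's quasi-likelihood test over all genes). Within groups, Rorb had a log2 fold change of 0.45 in mid-layer-like (SE 0.10, adjusted p = 0.28), 0.54 in layer 5 IT-like (SE 0.11, adjusted p = 0.41), 0.41 in Ankfn1/Pld5 (SE 0.13, adjusted p = 0.68) and 0.83 in layer 5 ET-like nuclei (SE 0.23, adjusted p = 0.59). The layer 5 ET-like value was 0.43 without Run SI, 0.43 without Sed SI and 1.02 to 1.08 without any other library. In each of these 4 groups the ratio was above 0 in all 3 pairs, with its counting interval above 0 in all of them. In astrocyte-like nuclei, where Rorb was highest, 2 pairs were above 0 and 1 below, from -0.28 to 0.31.

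Cux2 in the pyramidal sum was 415, 490, 162, 213, 160 and 203 CPM, and each Run library was lower than its Sed partner, by 0.24 to 0.39 on the log2 scale. Run and Sed values overlapped across cohorts but not within one. The log2 fold change was -0.37 (SE 0.09, adjusted p = 0.66), and it was -0.36 in layer 2/3-like (SE 0.10, adjusted p = 0.62), -0.46 in Ankfn1/Pld5 (SE 0.12, adjusted p = 0.60) and -0.48 in mid-layer-like nuclei (SE 0.12, adjusted p = 0.37). Cux1 had log2 fold changes between -0.12 and 0.19 in the 14 sets of nuclei tested. Over the same 14 sets Cux2 lay between -0.54 and 0.53. Rorb, in the sets where it was tested, lay between -0.62 and 1.10, so both genes took both signs. Bcl11b was lower in Run in all 3 pairs of the layer 5 ET-like (-0.31, SE 0.11), layer 5 NP-like (-0.41, SE 0.12), layer 6 CT-like (-0.29, SE 0.10) and layer 6 IT-like groups (-0.40, SE 0.13), with adjusted p from 0.49 to 0.74. Etv1 was higher in Run in all 3 pairs of the layer 5 ET-like group (0.47, SE 0.15, adjusted p = 0.66).

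**Figure D3:**
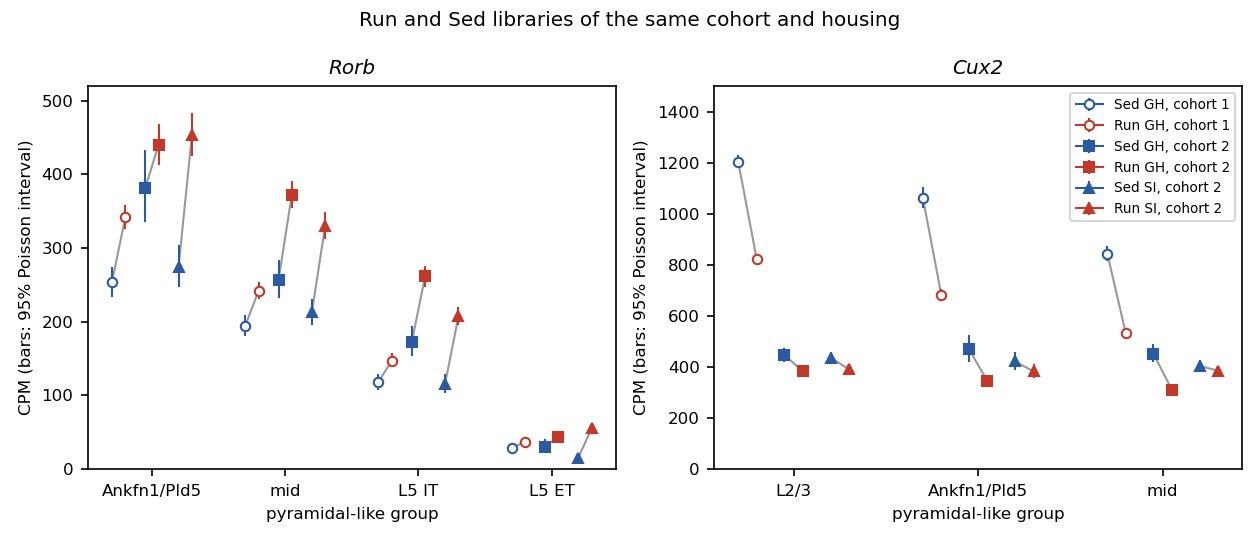
Rorb and Cux2 levels (CPM, linear axes from 0) in the groups where they are high. Each line joins the Sed (blue) and Run (red) library of the same cohort and housing, and bars are 95% Poisson intervals that cover counting error only. Rorb is higher and Cux2 lower in Run in every pair shown; no difference passes the adjusted threshold.

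Over the 13 cell groups, 0 of 104 member tests passed, against 0.0396% of all tests of genes, and 23 had an unadjusted p under 0.05, against 6.4% of all. In the pyramidal sum 0 of 9 passed, against 0% of 17927 genes. With the pyramidal sum included, DESeq2 called 1 of the 83 member tests to which it gave an adjusted p, against 0.114% of all tests, a share that counts those without an adjusted p as not called. Without a filter on low counts, edgeR called 4 of 126, against 0.216% of all. More tests passed in the fits that lacked a cohort 1 library, over all genes as well as for the members. The fit to cohort 2 alone called 13 of 106, against 4.51% of all tests. Leaving out Run GH of cohort 1 called 11 of 116, against 3.81%, and leaving out Sed GH of cohort 1 called 12 of 117, against 3.86%. These fits had 1 residual degree of freedom. When a cohort 1 library is left out, the cohort term takes up the other one. All of these fits therefore estimate the Run effect from the libraries of cohort 2 and are not separate results. The cause of the change was not tested. Rorb in layer 5 IT-like nuclei had a log2 fold change of 0.63 (adjusted p = 0.00036, edgeR) in cohort 2 alone. The fit to all libraries had 2 residual degrees of freedom. Of 30 other projection neuron factors, such as Tle4 and Sox5, 0 passed in any set.

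The second comparison set SI against GH, which exist side by side in cohort 2 only. No member passed in any group (0 of 104 tests, against 0.00072% of all, and 0 of 9 in the pyramidal sum, against 0% of all). An unadjusted p under 0.05 was reached by 5 of the 104, against 2.12% of all tests, and DESeq2 also called 0. The clearest was Rorb in layer 5 IT-like nuclei, at 262 CPM in Run GH and 207 CPM in Run SI and at 173 CPM in Sed GH and 116 CPM in Sed SI, a log2 fold change of -0.43 (SE 0.14, adjusted p = 0.9999, edgeR). In the pyramidal sum Rorb was -0.29 (SE 0.12) and the other 8 members lay between -0.08 and 0.20. The 30 other factors had 0 calls.

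Whether the Run difference itself depended on housing was tested as an interaction. It gave 0 of 108 member calls in the groups (against 0.002% of all tests) and 0 of 9 in the pyramidal sum (against 0%). An unadjusted p under 0.05 was reached by 12 of the 108, against 1.89% of all, the lowest adjusted p was 0.998 (edgeR), and DESeq2 called 0.

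Differences between the cohorts passed the test far more often. Cux2 in layer 2/3-like nuclei was 821 and 1202 CPM in cohort 1 and 382 to 447 CPM in cohort 2, a log2 fold change of -1.45 (SE 0.13, adjusted p = 7.1e-05). In the pyramidal sum 5 members were lower in cohort 2, namely Cux2 (-1.45, SE 0.11, adjusted p = 0.00091), Cux1 (-1.02, SE 0.16, adjusted p = 0.0053), Bcl11b (-0.68, SE 0.18, adjusted p = 0.031), Tbr1 (-0.66, SE 0.19, adjusted p = 0.040) and Foxp1 (-0.48, SE 0.10, adjusted p = 0.014). Etv1 alone was higher (0.68, SE 0.18, adjusted p = 0.030), and Foxp2, Fezf2 and Rorb did not pass. These 6 of 9 calls compare with 38% of all genes. Within the 13 groups 52 of 104 tests passed, 46 lower and 6 higher in cohort 2, against 29% of all. This term was read after the levels had been seen. With the pyramidal sum included, 58 of 113 tests passed, against 30% of all. When Run GH of cohort 2 was left out 28 of 117 passed, against 12.1% of all tests in that fit, and when the shallow Sed GH library of cohort 2 was left out 37 of 115 passed, against 20.1%.

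By gene, Cux2 was lower in cohort 2 in 10 of 13 groups, and Cux1, Bcl11b and Foxp1 in 8 of 13 each. Etv1 was higher in the 3 layer 5 groups and in layer 6 CT-like nuclei. Rorb went both ways, higher in mid-layer-like (0.36, SE 0.12) and layer 5 IT-like nuclei (0.54, SE 0.14) and lower in layer 6 IT-like (-1.25, SE 0.34) and PV-like nuclei (-1.76, SE 0.46). Foxp2 was lower in 7 of 12 groups, each a group where the gene was low, and in layer 6 CT-like nuclei, where it was highest, its log2 fold change was -0.13 (SE 0.13, adjusted p = 0.45). Depth, free RNA, prior tube tests and the selection of animals by rank all differed between cohorts and cannot be told apart. The sum of a list of 6 genes marking striatal spiny projection neurons, a tissue next to the prefrontal cortex, was also higher in cohort 1. It was 1410 and 1603 CPM in the pyramidal nuclei of cohort 1 and 1135 to 1219 CPM in those of cohort 2. All 6 genes were detected in each library. The sum can rest on few of the genes. In the Ankfn1/Pld5 group it was 1164 to 1664 CPM, with as few as 2 of the 6 detected in a library. The levels of the single genes were not compared, and the part of this list in the cohort differences was not tested. With the expected free RNA subtracted, Foxp2 was lower in 1 of 10 groups and Cux1 in 4 of 13, and Cux2 was lower in 5 and higher in 4 of 12, where 21.4% of all tests passed. With the same subtraction, Foxp1 was lower in 4 of 13 groups and Tbr1 in 2 of 8. Etv1 was higher in 1 of 11, and Rorb higher in 1 and lower in 1 of 9. After thinning every nucleus to 1000 UMIs, 27.6% of all tests passed, with Cux2 lower in 8 of 11 groups and Foxp2 in 2 of 7. Foxp1 was then lower in 5 of 12 and Tbr1 in 0 of 3, and Etv1 was higher in 3 of 7. Rorb was higher in 2 of 7 and lower in 0. With DESeq2, where 15.7% of all tests passed, Foxp1 was lower in 4 of 13 groups and Tbr1 in 0 of 9. Etv1 was higher in 2 of 11, and Rorb was higher in 1 of 11 and lower in 0. Of the 30 other factors, 8 were higher and 8 lower in the pyramidal sum, with the smallest adjusted p (edgeR) for Neurod6 (log2 fold change 1.54, adjusted p = 0.00096), Nfix (-1.28, 0.0018), Bhlhe22 (1.85, 0.0019), Tshz3 (-0.85, 0.0020) and Lmo4 (0.75, 0.0028).

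**Figure D4:**
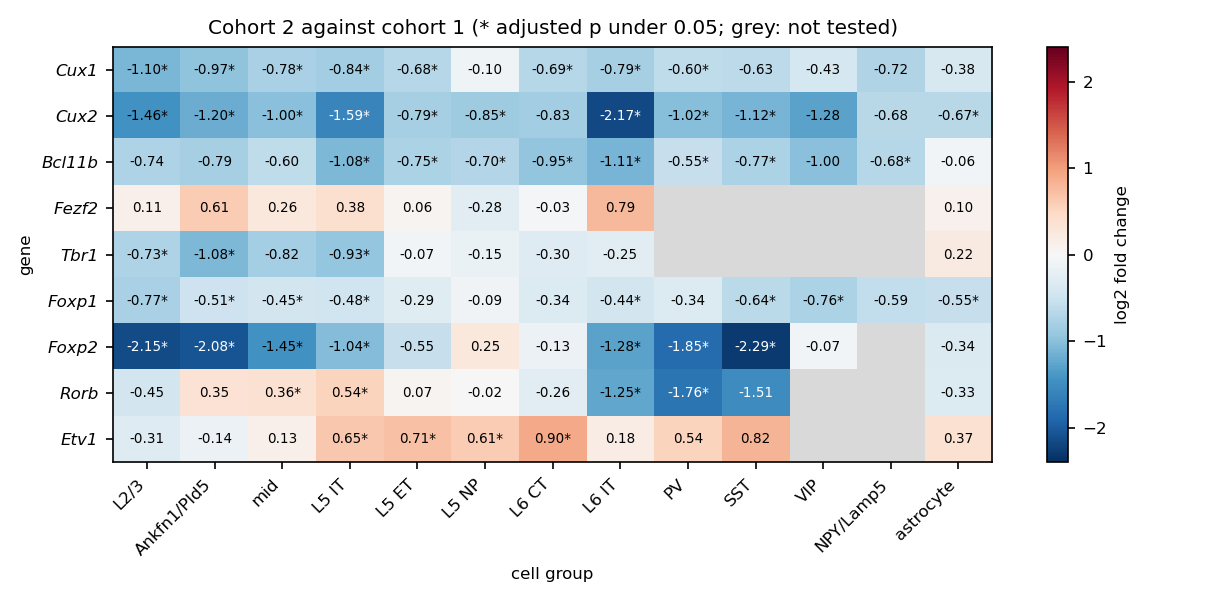
Log2 fold change of each gene in cohort 2 against cohort 1 for the 13 cell groups, from the edgeR fit with cohort, maternal and housing terms. Stars mark adjusted p under 0.05 and grey cells were not tested. Cux2 is starred as lower in 10 groups and Etv1 as higher in 4.

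The Run difference was not the same in both cohorts for 13 member tests. In the pyramidal sum 5 of 9 members passed the test of the interaction, against 8.94% of all genes. Foxp2 showed this most strongly, at 83.7 CPM in Run and 157 CPM in Sed of cohort 1, but 121 against 89.1 CPM in the GH and 119 against 110 CPM in the SI libraries of cohort 2. The difference between the log2 Run effects was 1.05 (SE 0.14, adjusted p = 0.00020). Layer 6 CT-like nuclei, where Foxp2 is concentrated, made up 10.0% of the pyramidal nuclei in the Run and 23.3% in the Sed library of cohort 1. In the cohort 2 libraries they made up 18.0%, 11.9%, 16.5% and 14.1%. Within those nuclei Foxp2 was 578 and 546 CPM in cohort 1 and did not pass. The sum by itself does not part a larger share of CT-like nuclei from more RNA per nucleus. How much each added to the sum was not tested. Fezf2 (0.96, SE 0.20, adjusted p = 0.0048) and Bcl11b (0.61, SE 0.14, adjusted p = 0.012) had the same sign, and Etv1 (-0.62, SE 0.15, adjusted p = 0.015) and Cux1 (-0.53, SE 0.13, adjusted p = 0.021) the opposite one. In the 4 groups where Bcl11b was high, its interaction was between -0.09 and 0.07 (adjusted p from 0.92 to 0.96, edgeR).

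In the 13 groups 8 of 108 member tests passed, 4 in each direction, against 2.48% of all. In layer 5 NP-like nuclei, Fezf2 was 49.0 CPM in Run and 103 in Sed of cohort 1, but 80.1 against 31.8 and 78.6 against 55.8 CPM in cohort 2 (1.68, SE 0.37, adjusted p = 0.0014). Etv1 in the same nuclei was 385 in Run and 214 CPM in Sed of cohort 1, and 524 against 461 and 448 against 500 CPM in cohort 2 (-0.98, SE 0.20, adjusted p = 0.00032). Foxp2 in layer 2/3-like nuclei (2.19, SE 0.40, adjusted p = 6.4e-05) and layer 6 IT-like nuclei (1.97, SE 0.55, adjusted p = 0.020) rested on levels of 3.6 to 41.3 CPM. Foxp2 in the free RNA of cohort 1 was 74.5 CPM in Run and 153 CPM in Sed, and with the expected free RNA subtracted the values were 2.59 in layer 2/3-like (SE 0.73, adjusted p = 0.015 by edgeR) and 2.39 in layer 6 IT-like nuclei (SE 0.88, adjusted p = 0.11). This model left 1 residual degree of freedom, and DESeq2 called 1 member test, Foxp2 in the pyramidal sum, against 0.37% of all tests, and gave no adjusted p for Foxp2 in layer 6 IT-like nuclei. Of the 30 other factors, 3 were called up and 1 down in the pyramidal sum, Nfia (1.05, adjusted p = 5.2e-05 by edgeR), Neurod2 (0.88, 0.0032) and Nfib (0.42, 0.032) upward and Rora (-0.63, 0.0012) downward.

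**Figure D5:**
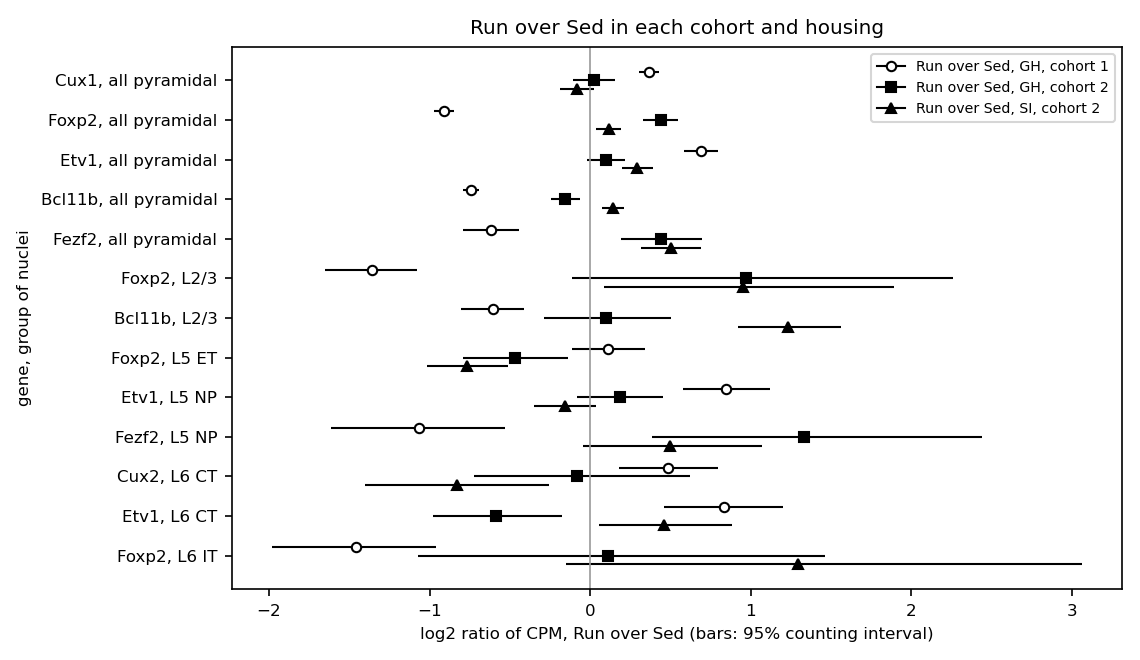
Log2 ratio of CPM, Run over Sed, in each cohort and housing for the 13 gene and group pairs whose Run effect differed between cohorts by edgeR. Bars are 95% counting intervals from the UMIs of 2 libraries. Foxp2 in all pyramidal nuclei lies at -0.91 in cohort 1 and at 0.44 and 0.12 in cohort 2.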

How the data were processed

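Nuclei from the prelimbic cortex were captured with 10x Chromium 3′ V3 chemistry, 1 library per group and cohort, each from 3 pooled males. The authors aligned reads to mm10 with introns included by Cell Ranger 6.0.0, per the labels and the study's methods, and deposited unfiltered UMI counts for 32285 genes. From these counts, nuclei with 500 to 4000 genes, at most 1% mitochondrial UMIs and a library-specific UMI minimum were kept. All libraries were clustered together without the 9 members (Pearson residuals, theta 100, 3000 genes, 35 principal components, 20 neighbours, Leiden resolution 0.6, scanpy 1.11.5), and clusters were named from fixed markers. Doublets were kept, and their removal was an alternative in which the top 6% of scores per library were taken.

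UMIs were summed per library and group and tested over all genes with edgeR 4.0.16 (R 4.3.3, quasi-likelihood, TMM, filterByExpr, terms for cohort, maternal group and housing, 2 residual degrees of freedom, Benjamini-Hochberg threshold 0.05). Differences of the Run effect between cohorts or housings were interaction terms with 1 residual degree of freedom. The named genes were the 9 members, at most 5 of 30 other projection neuron factors per comparison by adjusted p, and for each member the genes with the most similar levels. Members, lists and tests were chosen with earlier results of these data known. The scripts were tested on simulated data. No cohort holds a repeated library of any condition, so no spread between like libraries of a cohort was measured. P-values rest on how far the pooled libraries depart from the terms of each model. In the interaction by cohort, that departure is the difference of the Run effect between housings. Binomial and Poisson intervals cover counting error only. The quasi-likelihood test gives no SE. The SE beside an edgeR value is its absolute log2 fold change divided by the square root of the F statistic of that test. Alternatives were other clusterings, gene limits, doublet removal, subtraction of free RNA, thinning to 1000 UMIs, DESeq2 1.42.0 and its size factors, no filter, no cohort term, subsets of libraries and leaving out each library. Promoters came from the RefSeq table for GRCm38.p6, which matched 8 of the 9 members.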

Additional observations from a re-analysis of the deposited data

Results flagged for a closer look

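The 13 values here are log2 Run effects in cohort 2 minus those in cohort 1, each past an adjusted p of 0.05 in the edgeR interaction test, which had 1 residual degree of freedom. In the pyramidal sum they were 1.05 for Foxp2 (SE 0.14), 0.96 for Fezf2 (SE 0.20), 0.61 for Bcl11b (SE 0.14), -0.62 for Etv1 (SE 0.15) and -0.53 for Cux1 (SE 0.13). In layer 2/3-like nuclei they were 2.19 for Foxp2 (SE 0.40) and 1.24 for Bcl11b (SE 0.26). Layer 5 ET-like nuclei gave -0.91 for Foxp2 (SE 0.22). Layer 5 NP-like nuclei gave 1.68 for Fezf2 (SE 0.37) and -0.98 for Etv1 (SE 0.20). Layer 6 CT-like nuclei gave -1.08 for Cux2 (SE 0.32) and -0.99 for Etv1 (SE 0.29). The first of these passed in 3 of 11 alternatives and was 0.61 with doublets removed, and the second passed in 6 of 11. Layer 6 IT-like nuclei gave 1.97 for Foxp2 (SE 0.55), past the threshold in 6 of 9 alternatives and at 4.12 (SE 1.5, adjusted p = 0.26 by edgeR) after thinning. Foxp2 in the pyramidal sum stayed past the threshold in all 11 alternatives run, with the highest adjusted p at 0.0037, and the other 9 values passed in 8 to 10 of 11. Among these, Bcl11b in layer 2/3-like nuclei was 0.52 (SE 0.41, adjusted p = 0.68 by edgeR) after thinning. The layer 6 CT-like share of pyramidal nuclei moved with Foxp2 in the pyramidal sum, while within layer 6 CT-like nuclei the Foxp2 value was -0.21 (adjusted p = 0.59 by edgeR). Every alternative for these values used all 6 libraries, since this model cannot be fitted with any left out. With a single pair of libraries in cohort 1, the cohort and the animals cannot be told apart. If its Run males ranked top and its Sed males bottom, rank and maternal group cannot be told apart there either.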

How the results depend on the processing

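The count of member tests past the threshold is given for 14 sets of nuclei. For Run against Sed it was 0, and 1 with DESeq2, 4 without a filter on low counts, 13 in cohort 2 only, and 0 to 12 when a library was left out, 11 and 12 of them without Run GH or Sed GH of cohort 1. For SI against GH, and for the Run effect in SI minus GH, it was 0 under every alternative run. For the Run effect in cohort 2 minus cohort 1 it was 13 (3.2% of all tests passed in that fit), and 5 after thinning (1.68%), 1 with DESeq2 (0.37%), 15 with the expected free RNA subtracted (4.69%) and 9 to 14 otherwise (1.8% to 4.08%). For cohort 2 against cohort 1 it was 58 (30%), and 34 after subtraction of free RNA (21.4%), 36 after thinning (27.6%), 34 with DESeq2 (15.7%) and 28 to 60 when a library was left out (12.1% to 32.4%). The Run and Sed directions of Rorb (pyramidal sum, mid-layer-like, layer 5 IT-like and ET-like) and Cux2 (pyramidal sum, layer 2/3-like, Ankfn1/Pld5 and mid-layer-like) held in each alternative that gave a value. All 3 pairs of libraries already had these directions, so fits to fewer libraries were no separate check of them. Rorb in layer 5 ET-like nuclei was 0.43 to 1.08 when a library was left out. It was 0.43 in the group-housed libraries only and 0.51 after thinning. Without 1 SI library the housing term takes up the other, so those fits estimate the Run effect from the GH libraries. Cux2 in layer 6 CT-like nuclei turned from -1.08 to 0.61 with doublets removed and to 0.26 after thinning. By its median, a member kept its highest pyramidal group in 9 of 9 cases with resolution 1.0, doublets removed or free RNA subtracted, in 8 with each cohort clustered apart (Rorb moved to the mid-layer-like group) or after thinning (Cux2 moved to it), and in 7 to 9 when a library was left out, where Cux2 moved to the layer 2/3-like or Fezf2 to the layer 5 ET-like group. With members kept in clustering, at least 1000 genes or no upper limit, the Ankfn1/Pld5 group was not separate and 6 held, while Cux1, Cux2 and Rorb peaked elsewhere. With each cohort clustered apart that group was found in cohort 1 only, at 904 CPM of Cux2, 268 of Cux1 and 261 of Rorb, against 446, 163 and 362 over all libraries. The cause of these changes was not tested.

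The labels give Run GH and Sed GH the same cohort numbers, so the cohort term is the replicate block, with 2 pairs in GH. Without the replicate block, 0 Run against Sed tests passed, as with it. The interactions by cohort and by housing could not be fitted with any library left out.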

Other observations

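The 44 nuclei that matched markers of vascular leptomeningeal cells, too few per library for a comparison, held 5229 CPM of Foxp1 (95% Poisson interval 4860 to 5619) and 2685 CPM of Foxp2 (2422 to 2969) when pooled over libraries. Both exceed the highest value of the same gene in any library of the other named groups, 1001 CPM for Foxp1 and 644 CPM for Foxp2. A cluster of 204 inhibitory nuclei was left unnamed by the interneuron marker lists, with 40.2% of its nuclei from Sed SI. It held 1353 CPM of Foxp1, 473.5 CPM of Foxp2, 407 CPM of Bcl11b (361 to 458) and 105 CPM of Etv1 in the pool. The striatal gene list given above was not used in naming, so a match to it was not tested. In the named interneuron groups Foxp2 was at most 72.7 CPM in any library.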
